A study of Mus musculus with 6 samples.

Results

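Mitochondrial ribosomal proteins are the protein components of the ribosome inside mitochondria, and their genes were followed here in primary hepatocytes of alcohol-fed mice. The genes were taken by name, as rows of the deposited table whose symbol begins with Mrpl or Mrps and a number, without pseudogene rows. This gave 78 of the 25718 genes listed, 49 named Mrpl and 29 named Mrps. Poly(A)-selected RNA had been sequenced from hepatocytes of WT mice and of S100a16KO+/- mice, with 3 libraries per genotype. S100a16KO+/- mice carry 1 deleted copy of S100a16, a calcium-binding protein of the S100 family, in every tissue, since the floxed allele was recombined by an EIIa-Cre transgene, and mice lacking both copies do not live. The sample labels give this genotype as a knockdown of S100a16, while the series text and the methods name the heterozygous knockout mice. Both genotypes were fed alcohol, as male mice of 8 to 10 weeks that received control liquid diet for 5 days, a 5% ethanol diet for 10 days and, 9 h before their livers were taken, ethanol by gavage at 5 g/kg, and no library without alcohol was sequenced. Each library was taken as 1 replicate. Nothing in the labels says that the libraries of a genotype came from separate mice, so p-values measure the spread between these libraries, which may be technical.

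Mitochondria keep a small genome that encodes a few membrane subunits of the respiratory chain, and these are translated by a ribosome of their own. Its RNA comes from the mitochondrial genome, while every protein of it is encoded in the nucleus, made in the cytosol and imported. Part of these proteins have a counterpart at the same place of the bacterial ribosome, and the rest are counted here as mitochondria-specific. Hepatocytes are rich in mitochondria, which also oxidise the acetaldehyde made from ethanol. By structure, the 78 genes fall into 51 of the large subunit and 26 of the small subunit, because Mrps18a and Mrps30 lie in the large subunit in spite of their names. Mrps36 is left over, since its product is now known as a part of the 2-oxoglutarate dehydrogenase complex and not of the ribosome.

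Promoters of these genes carry some motifs more often than those of other genes. RefSeq windows on GRCm38.p6, from 250 bases before to 50 after a transcription start, were matched by symbol to 69 of the 78 genes, in 75 windows. The letters CCGGAA, read by ETS factors such as GABP, stood on either strand in 57.3% of these windows, against 14.9% of all windows and 25.1% of the windows of tested genes. AAGATGGC, the core of the YY1 motif, stood in 16% against 2.75% and 4.04%, and GCGCATGC, the core of the NRF1 motif, in 10.7% against 2.71% and 4.65%. The CCAAT box was about as common as elsewhere, at 40% of windows against 37.4% of all. The TATA letters TATAAA were found in 6.67% against 13.6% of all and 8.07% of tested genes, the E-box CACGTG in 9.33% against 7.15% and 9.54%, and the amino acid response letters TGATGNAAT in 0 of 75 windows against 0.965% and 0.512%. The last 3 were thus close to the windows of tested genes. A match of letters is a description of the window and does not show that a factor binds. Printed here are the windows of Mrps5 and Mrps2, which fell, of Mrps12, the highest gene whose libraries did not overlap, and of Mrps18c, which was nearest to no change. Capitals mark the motif letters on either strand. They lie at chr2:127587176-127587475 (plus strand), chr2:28467816-28468115 (plus), chr7:28741772-28742071 (minus) and chr5:100798509-100798808 (plus).
Mrps5: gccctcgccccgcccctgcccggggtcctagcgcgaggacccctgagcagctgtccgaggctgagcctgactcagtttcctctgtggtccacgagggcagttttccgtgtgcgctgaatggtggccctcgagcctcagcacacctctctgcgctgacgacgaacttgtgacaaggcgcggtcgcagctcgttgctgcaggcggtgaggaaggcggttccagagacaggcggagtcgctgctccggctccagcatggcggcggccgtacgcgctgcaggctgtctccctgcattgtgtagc
Mrps2: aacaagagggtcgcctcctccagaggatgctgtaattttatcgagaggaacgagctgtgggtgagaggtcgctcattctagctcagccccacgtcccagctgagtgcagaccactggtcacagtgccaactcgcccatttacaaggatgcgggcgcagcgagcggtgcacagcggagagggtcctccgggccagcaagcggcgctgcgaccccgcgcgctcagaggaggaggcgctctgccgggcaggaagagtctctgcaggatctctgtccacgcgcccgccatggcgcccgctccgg
Mrps12: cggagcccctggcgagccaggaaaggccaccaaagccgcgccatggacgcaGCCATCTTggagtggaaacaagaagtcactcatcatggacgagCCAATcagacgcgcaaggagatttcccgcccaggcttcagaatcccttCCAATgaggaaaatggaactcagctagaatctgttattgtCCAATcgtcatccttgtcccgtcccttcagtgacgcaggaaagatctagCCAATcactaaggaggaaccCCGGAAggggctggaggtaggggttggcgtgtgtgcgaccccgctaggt
Mrps18c: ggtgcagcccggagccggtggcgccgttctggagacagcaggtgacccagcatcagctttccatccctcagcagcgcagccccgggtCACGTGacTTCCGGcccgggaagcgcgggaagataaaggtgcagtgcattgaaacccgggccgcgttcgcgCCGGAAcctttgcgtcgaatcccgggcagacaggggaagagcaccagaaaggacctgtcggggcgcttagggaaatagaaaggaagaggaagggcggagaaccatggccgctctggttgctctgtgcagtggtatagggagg
The windows of Mrps5 and Mrps2 held none of the 7 motifs searched. The window of Mrps12 held 1 ETS match, 1 YY1 match and 4 CCAAT boxes, and that of Mrps18c held 2 ETS matches and 1 E-box. Many of these genes start near another gene. For 33 of the 78 (42.3%), another protein-coding gene starts on the opposite strand within 1000 bp, against 15.6% of tested protein-coding genes. The partner could start upstream or downstream, and in some pairs, such as Mrps11 and Mrpl46, the genes overlap at their 5′ ends.

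Depth was similar, at 67658095 to 71807834 estimated counts a library. S100a16, the targeted gene, stood at 15.3 ± 0.80 CPM (SD, n = 3) in WT and 5.80 ± 0.63 in S100a16KO+/-, a log2 fold change of -1.40. CPM is the count per 1e6 counts after TMM scaling, which sets the libraries to a common composition. The mitochondrially encoded genes took 17.0% to 21.1% of the counts, with the highest shares in WT replicate 1 (21.1%) and S100a16KO+/- replicate 2 (20.1%). All 7 hepatocyte markers were measured, with albumin at 88524 CPM in WT, and 1 was called higher and 2 lower. Markers of other cells differed between genotypes. Erythroid genes were called lower in 5 of 5, with a summed level of 215 to 252 CPM in WT and 23.4 to 26.3 in S100a16KO+/-. Endothelial genes were called higher in 5 of 6 and lower in 1 (192 to 203 against 281 to 288 CPM), stellate cell genes higher in 3 of 6 (35.6 to 38.7 against 64.5 to 70.8 CPM), and macrophage genes higher in 2 of 7 (96.5 to 118 against 117 to 126 CPM). The summed level of the other lists was at most 3.31 CPM for biliary, 2.75 for lymphocyte and 5.69 for neutrophil genes, and the neutrophil marker Ly6g was at 0 in WT. The part of these cells in the values below was not tested.

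All 78 genes passed the filter on low counts, with 247 to 4177 counts per gene and library. Their levels per transcript length spanned 31.4-fold in mean FPKM, with a median of 4.97 FPKM. All were at 1 FPKM or more and 16 at 10 or more. Mrpl12, a protein of the stalk of the large subunit that also binds the mitochondrial RNA polymerase, was highest at 34.4 ± 0.56 FPKM in WT and 31.1 ± 2.6 in S100a16KO+/- (SD, n = 3). Mrpl14 followed at 20.8 ± 2.3 and 19.4 ± 0.66 FPKM, and Mrpl34 at 20.2 ± 2.2 and 16.7 ± 3.1 FPKM, so the order of the second and the third was within the spread. At the other end, Mrpl19 stood at 1.15 ± 0.23 and 0.94 ± 0.14 FPKM, Mrpl33 at 1.23 ± 0.31 and 0.98 ± 0.15, and Mrps25 at 0.96 ± 0.05 and 1.27 ± 0.48, which overlap one another. FPKM divides by length. The length implied by the deposited counts and FPKM was 1.12 to 1.13 times that of all annotated exons of a gene merged, for each of the 78 genes. That factor also depends on the library total behind FPKM, so only a proportion to merged exon length is shown. Those merged lengths ran from 607 bp for Mrpl34 to 8631 bp, and the lowest 3 were 5450 bp for Mrpl19, 7326 bp for Mrpl33 and 6576 bp for Mrps25. In counts not divided by length, the spread was 12.3-fold, from 4.55 to 56.1 CPM. Levels between genes of unequal annotation are therefore less secure than levels of 1 gene between genotypes.

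**Figure D1:**
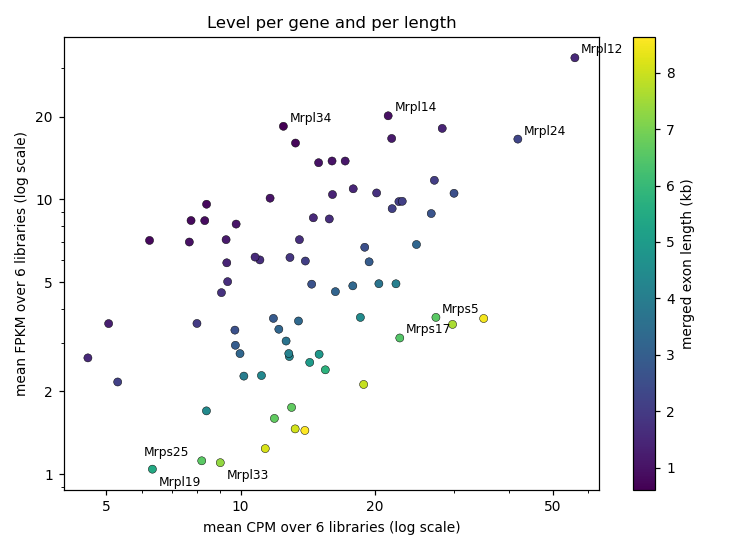
Mean CPM (horizontal, log scale) against mean FPKM (vertical, log scale) over 6 libraries for each of the 78 genes, coloured by merged exon length in kb. Mrpl12 is highest on both axes, and the genes at the bottom, Mrpl19, Mrps25 and Mrpl33, are among those with long merged exons.

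The comparison of genotypes asked whether loss of 1 copy of S100a16 went with a different level of these transcripts in alcohol-fed hepatocytes. Most changed little. Of the 78 genes, 0 rose and 3 fell at an adjusted p under 0.05 (3.85%), against 22.8% of the 15957 tested genes, of which 11.6% were higher and 11.2% lower. Among the 7243 tested genes whose mean CPM lay within the range of the 78, 29.6% were called. No member reached the criterion of the study, an unadjusted p under 0.05 with a change of at least 2-fold, against 4.52% of all tested genes. In bulk RNA, fewer cells of a type and less RNA per cell cannot be told apart.

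The small values leaned downward. The log2 fold change was below 0 for 58 of the 78 genes (74.4%) and above 0 for 20, against 49.4% below 0 among all tested genes and 54.6% among tested genes of similar CPM. Its median was -0.09, with a range from -0.56 to 0.38, while the median of all tested genes was 0.01 and that of tested genes of similar CPM was -0.03. At an unadjusted p under 0.05, 18 genes were lower (23.1%) and 3 higher (3.85%), against a background of 16.7% lower and 16.9% higher. Among tested genes of similar CPM, 23.3% were lower and 19.2% higher by the same measure, so the share of lower genes was that of the matched background. The 3 libraries of one genotype lay wholly below those of the other for 17 genes lower in S100a16KO+/- (21.8%) and wholly above for 4 genes (5.13%), against 18.6% and 19.2% of all tested genes and 24.7% and 20.5% at similar CPM. The share without overlap was thus near the background for genes that were lower and under it for genes that were higher. Genes of a ribosome are not independent of each other, and no test over the whole list was made.

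**Figure D2:**
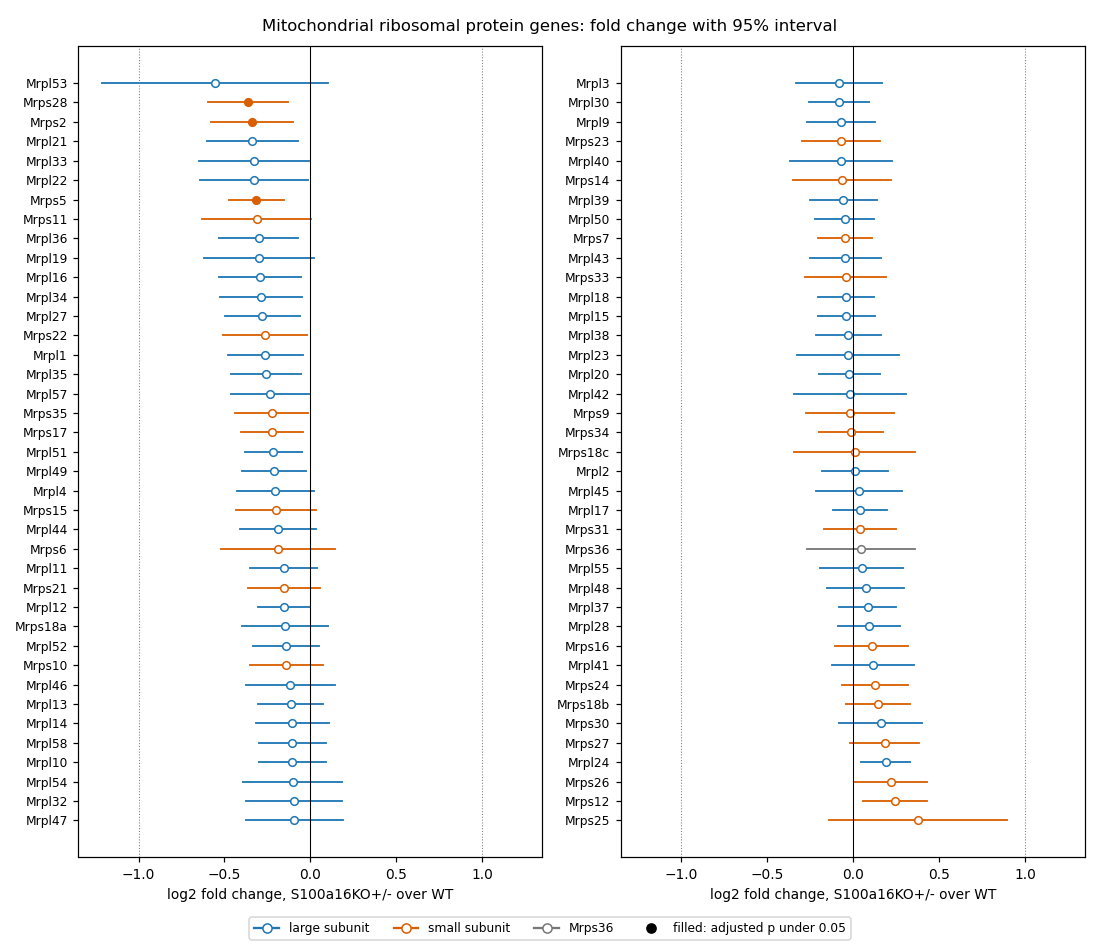
Log2 fold change of S100a16KO+/- over WT (horizontal axis, with 95% interval) for the 78 genes in order, from edgeR, with dotted lines at a 2-fold change. Points run from -0.56 for Mrpl53 to 0.38 for Mrps25, and the 3 filled points, Mrps28, Mrps2 and Mrps5, passed an adjusted p under 0.05.

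How small a change could be seen is given by the intervals. The standard error had a median of 0.10 on the log2 scale and ran from 0.07 to 0.28. The 95% interval lay within a 2-fold change in either direction for 77 of the 78 genes, and within 1.5-fold for 70. The exception at 2-fold, named for it after its values were seen, was Mrpl53, a mitochondria-specific protein of the large subunit. It stood at 5.26, 7.53 and 9.53 CPM in WT replicates 1 to 3 and at 6.67, 5.09 and 3.43 in S100a16KO+/-. Its libraries overlapped, and the log2 fold change of -0.56 had an adjusted p of 0.218.

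The genes that fell were all of the small subunit and have a bacterial counterpart, and stood at 77.8% to 80.4% of WT. Mrps5 is the counterpart of a bacterial protein at the channel where mRNA enters the ribosome (ENSMUSG00000027374, chr2:127587222-127606829, plus strand, GRCm38). It stood at 33.3, 28.3 and 29.4 CPM in WT and at 24.8, 23.5 and 24.9 CPM in S100a16KO+/-. The genotypes did not overlap. The log2 fold change was -0.31 (SE 0.08, adjusted p 0.00773, edgeR). This call held when any 1 library was left out, with an adjusted p of at most 0.0415.

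Mrps28 (ENSMUSG00000040269, chr3:8802146-8923918, minus strand), another protein of the small subunit, stood at 8.68, 9.79 and 9.83 CPM in WT and at 7.32, 7.19 and 7.51 CPM in S100a16KO+/-. Every WT library was higher than every S100a16KO+/- library. The log2 fold change was -0.36 (SE 0.11, adjusted p 0.0271, edgeR). It overlaps another annotated gene on its own strand. Leaving out WT replicate 2 or 3, or S100a16KO+/- replicate 1, 2 or 3, ended the call, with adjusted p between 0.0535 and 0.0926, as did total counts in place of TMM (0.0712).

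Mrps2 (ENSMUSG00000035772, chr2:28468066-28471178, plus strand), the counterpart of a bacterial protein between the head and body of the small subunit, overlapped between genotypes and was named after its values were seen. It stood at 24.3, 22.0 and 18.7 CPM in WT and at 17.5, 19.1 and 14.8 CPM in S100a16KO+/-. WT replicate 3 was lower than S100a16KO+/- replicate 2. The log2 fold change was -0.34 (SE 0.11, adjusted p 0.0398, edgeR). The call was lost without WT replicate 1 or 2 or S100a16KO+/- replicate 1 or 3, with adjusted p between 0.0781 and 0.175, and with upper-quartile factors (0.0662).

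**Figure D3:**
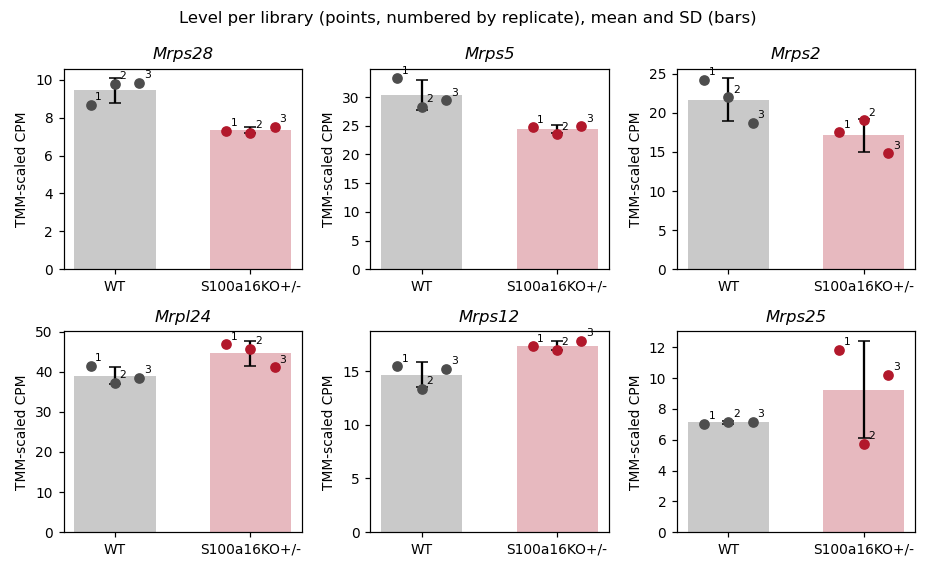
TMM-scaled CPM of 6 genes in each library (points, numbered by replicate), with the mean and SD of 3 libraries per genotype. The genotypes are separate for Mrps28, Mrps5 and Mrps12, and overlap for Mrps2, Mrpl24 and Mrps25, where S100a16KO+/- replicate 2 lies under all WT libraries.

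The genes nearest to a rise did not pass the test. Mrps12, a protein of the decoding centre, stood at 15.4, 13.4 and 15.2 CPM in WT and at 17.3, 17.0 and 17.8 CPM in S100a16KO+/-, without overlap. Its log2 fold change was 0.24 (SE 0.09, adjusted p 0.0605, edgeR). Mrpl24, of the large subunit, stood at 41.4, 37.2 and 38.5 against 46.9, 45.7 and 41.0 CPM, where S100a16KO+/- replicate 3 fell among WT. Its log2 fold change was 0.19 (SE 0.07, adjusted p 0.0550, edgeR). Both were named after their values were seen. Both were called higher with upper-quartile factors in place of TMM, and with a filter at a mean of 1 CPM. Mrpl24 was also called without WT replicate 1 or S100a16KO+/- replicate 3 (adjusted p 0.0441 and 0.0309, edgeR). It was called with counts divided by 4 (0.0372) and without both WT replicate 1 and S100a16KO+/- replicate 2 (0.0449, edgeR). Mrps12 was also called in both FPKM fits over genes at a mean FPKM of at least 1 (0.0480 and 0.0489, limma).

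Mrps25, a mitochondria-specific protein of the small subunit, had the highest log2 fold change, 0.38 (SE 0.23, adjusted p 0.293, edgeR). Its libraries stood at 7.03, 7.17 and 7.15 CPM in WT, the closest agreement of any of the 78 genes in that genotype, and at 11.8, 5.73 and 10.2 CPM in S100a16KO+/-, the widest. Replicate 2 alone was below WT. Without that library the log2 fold change was 0.63 with an adjusted p of 0.00197, so 1 library decided the call. The gene overlaps Nr2c2 on the opposite strand.

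Of the abundant genes, Mrpl12 stood at 61.2, 58.1 and 57.8 CPM in WT and at 47.2, 57.5 and 54.7 CPM in S100a16KO+/-, where the last values came close to WT without reaching it. Its log2 fold change was -0.15 (SE 0.07, adjusted p 0.150, edgeR). It was called without S100a16KO+/- replicate 2 (-0.21, adjusted p 0.0440) and moved to -0.08 without replicate 1. Mrpl34 stood at 12.7, 14.6 and 13.8 against 11.9, 9.43 and 12.4 CPM, a difference of -0.29 on the log2 scale (adjusted p 0.0831, edgeR), which moved to -0.18 without S100a16KO+/- replicate 2. Nearest to 0 were Mrps18c at 0.01 (95% interval -0.34 to 0.36), Mrps34 at -0.01 (-0.20 to 0.17) and Mrpl2 at 0.01 (-0.18 to 0.21). The interval of Mrps18c was the widest of these, since WT replicate 3 stood at 12.6 CPM against 8.42 and 8.21 in the other WT libraries.

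The paralogs Mrps18a, Mrps18b and Mrps18c are related to the same bacterial protein, but only the product of Mrps18c takes its place in the ribosome. Those of Mrps18a, in the large subunit, and Mrps18b, in the small subunit, sit elsewhere and are counted as mitochondria-specific. Per length, Mrps18b was highest at 9.31 ± 0.55 FPKM in WT and 10.4 ± 0.40 in S100a16KO+/-. Mrps18c stood at 8.08 ± 2.2 and 8.17 ± 1.5 FPKM, within its spread of Mrps18b in WT. Mrps18a was lowest at 3.20 ± 0.35 and 2.90 ± 0.28 FPKM. Their log2 fold changes of -0.15 for Mrps18a, 0.14 for Mrps18b and 0.01 for Mrps18c did not pass the test, with adjusted p of 0.426, 0.275 and 0.98 (edgeR).

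In the large subunit, 0 of 51 genes were called, 41 were below 0 and the median log2 fold change was -0.10. In the small subunit, 3 of 26 were called (11.5%), 17 were below 0 and the median was -0.06. Of all tested genes, 22.8% were called and 49.4% were below 0, and at similar CPM 29.6% and 54.6%. Genes with a bacterial counterpart had a median of -0.11 over 46 and mitochondria-specific genes of -0.05 over 31, with 3 and 0 called. Within the small subunit, the 16 genes with a bacterial counterpart had a median of -0.15 and the 10 mitochondria-specific genes of 0.01. The differences between these classes were not tested.

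The libraries of S100a16KO+/- did not move alike. Against the mean of WT, the median of the 78 genes was -0.16 on the log2 scale in S100a16KO+/- replicate 1, -0.04 in replicate 2 and -0.10 in replicate 3, and between -0.03 and 0.05 in the WT libraries. The same median over all tested genes lay between 0.00 and 0.01 in each library. The summed level of the 78 genes was 1303, 1224 and 1274 CPM in WT and 1179, 1228 and 1198 CPM in S100a16KO+/-. S100a16KO+/- replicate 2 thus exceeded WT replicate 2. WT replicate 1 and S100a16KO+/- replicate 2, which had the largest mitochondrially encoded share, each held the highest value of their genotype for 37 of the 78 genes. Without both of these libraries, chosen after seeing the data, 5 genes were lower and 2 higher (8.97% called) and the background was 21.1%. The spread within a genotype, as a coefficient of variation, had a median of 8.83% in WT and 8.05% in S100a16KO+/-, against 6.89% and 7.42% for tested genes of similar CPM.

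**Figure D4:**
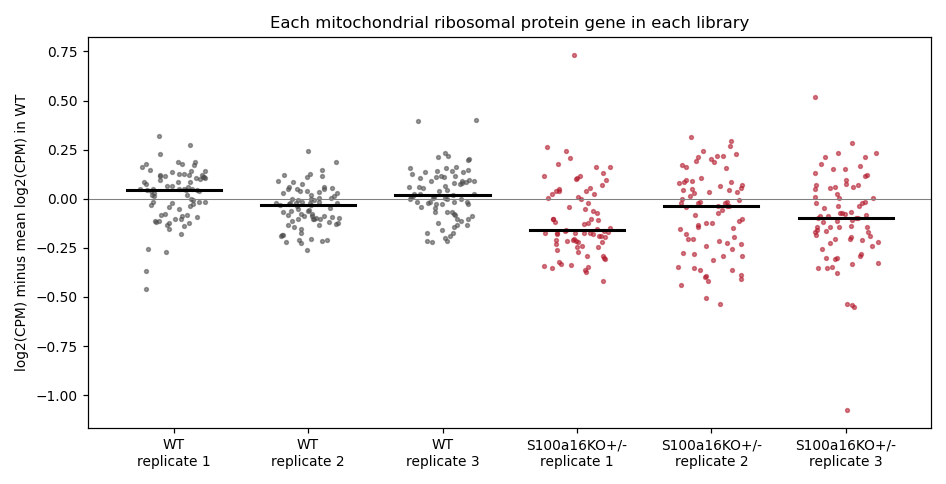
Each point is 1 of the 78 genes in 1 library, as log2(CPM) minus its mean log2(CPM) over the WT libraries, and the black line is the median of the library. The medians run from -0.03 to 0.05 in WT and from -0.16 to -0.04 in S100a16KO+/-, and the clouds overlap.

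Genes that start near a mitochondrial ribosomal protein gene, on the opposite strand, were mostly not called either. Of the partners that start on the opposite strand within 1000 bp, 30 were tested and 1 was called, against 22.8% of all tested genes. The partners include 2 of the 78 genes, Mrps11 and Mrpl46. The called partner was Pnpla7, next to Mrpl41, at 0.21 on the log2 scale (adjusted p 0.0136, edgeR). Mrps5 faces the zinc finger gene Zfp661 at 128 bp, and Zfp661 was at 0.09 (adjusted p 0.728). Mrps12 faces Sars2, which encodes the mitochondrial seryl-tRNA synthetase, at 172 bp, and Sars2 was at 0.02 (adjusted p 0.956). Mrps18c faces the DNA helicase gene Helq at 29 bp, which was at -0.10 (adjusted p 0.730). Mrps11 and Mrpl46, which overlap at their 5′ ends, were at -0.31 and -0.12, with adjusted p of 0.154 and 0.563. Of the 78 genes, 42 overlap another annotated gene, 13 of them on the same strand, and reads in those stretches may be shared.

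Of 5 tested ribosomal proteins with names outside the Mrpl and Mrps series, 1 fell and 0 rose. That was 20%, against 22.8% of all tested genes called and 11.2% lower. The gene was Ptcd3, an RNA-binding protein of the small subunit. It stood at 28.3 ± 2.4 CPM in WT and 23.7 ± 1.6 in S100a16KO+/- (log2 fold change -0.26, adjusted p 0.0346, edgeR). Dap3, a GTP-binding protein of the small subunit, was at 0.09 with an adjusted p of 0.498. For the 27 genes of ribosome assembly and rRNA modification, 0 were called, against 22.8% of all tested genes, and the median was -0.04. At an unadjusted p under 0.05, 1 was higher and 3 lower (14.8% in both directions, against 33.6% of all tested genes). The ribosomal RNAs themselves, mt-Rnr1 and mt-Rnr2, were at -0.03 and 0.05 (adjusted p 0.887 and 0.503), in libraries selected for poly(A) tails.

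Among the factors that work with this ribosome, Taco1 and Gfm1 stood well below WT. Of 18 translation factors, 6 fell and 1 rose (38.9%, against 22.8% of all tested genes and 29.6% at similar CPM), with a median log2 fold change of -0.09. Taco1, which activates translation of mt-Co1, stood at 10.2 to 12.9 CPM in the WT libraries and at 6.77 to 7.47 in S100a16KO+/- (log2 fold change -0.72, adjusted p 0.000333, edgeR). Gfm1, the elongation factor that moves the ribosome along the mRNA, stood at 66.1, 67.8 and 68.7 against 47.0, 48.1 and 40.8 CPM (-0.58, adjusted p 1.83e-05, edgeR). Pdf, which removes the formyl group from new proteins, was at 8.09 ± 0.15 against 5.94 ± 0.87 CPM (-0.45, adjusted p 0.0239, edgeR). In these genes every S100a16KO+/- library lay below every WT library. Metap1d, a methionine aminopeptidase, was the one that rose, by 0.22 on the log2 scale (adjusted p 0.0371, edgeR), and was named after its value was seen. Without S100a16KO+/- replicate 2, 3 translation factors were called lower, and 19.9% of all tested genes were called in either direction.

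Genes that transcribe and process the mitochondrial RNA, and proteases, held some falls. Of 20 transcription and RNA processing genes, 4 fell and 0 rose (20%, near the 22.8% of all tested genes), with a median of -0.11 and 0 higher at an unadjusted p under 0.05. Mterf2, of the family of mitochondrial transcription termination factors, was at -0.66 (adjusted p 0.0215), Hsd17b10, a subunit of mitochondrial RNase P, at -0.65 (adjusted p 1.24e-06) and Pnpt1, an exoribonuclease, at -0.34 (adjusted p 0.00778, all edgeR). Hsd17b10 fell from 136 ± 5.5 to 86.5 ± 4.0 CPM. Of 11 mitochondrial proteases, 4 fell (36.4%) and 0 rose. Among all tested genes, 22.8% were called and 11.2% were lower, and at similar CPM 29.6% and 15.7%. Oma1, a protease of the inner membrane, was at -0.35 (adjusted p 0.0261, edgeR). Both subunits of the processing peptidase that trims imported proteins, Pmpca and Pmpcb, were at -0.22 and -0.20 (adjusted p 0.0130 and 0.0183, edgeR). Afg3l2, a subunit of the protease that matures the ribosomal protein Mrpl32, was the fourth at -0.19 (adjusted p 0.0304). Mrpl32 itself was at -0.09 (SE 0.13, adjusted p 0.676), and both were named after their values were seen.

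The mRNAs that this ribosome translates were not called. All 13 mitochondrially encoded mRNAs had a log2 fold change below 0, with a median of -0.06 and a range from -0.24 for mt-Nd6 to -0.02 for mt-Atp6, and 0 of 13 had an unadjusted p under 0.05. Their summed level was 218636, 175890 and 180951 CPM in WT and 162765, 207905 and 161246 CPM in S100a16KO+/-. The libraries of both genotypes overlapped, with WT replicate 1 and S100a16KO+/- replicate 2 highest.

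Subunits of the respiratory chain and of ATP synthase encoded in the nucleus, the partners of the products of those mRNAs, held many falls. The list was taken by Nduf, Uqcr, Cox and Atp5 names, without complex II, and is called respiratory chain in this report. Of 75 tested, 29 fell (38.7%, against 11.2% of all tested genes and 15.7% of those in the CPM range of the 78 genes) and 0 rose. Below 0 were 73, the median was -0.19, and 44 were lower and 1 higher at an unadjusted p under 0.05. These shares are not at equal precision. The median level and standard error were 53.6 CPM and 0.07 here, 6.42 CPM and 0.14 for all tested genes, and 13.5 CPM and 0.10 for the 78 genes. Cox8a, a subunit of cytochrome c oxidase, fell from 141 ± 13 to 106 ± 12 CPM (log2 fold change -0.42, adjusted p 0.00290, edgeR) and Ndufb3, of complex I, from 21.9 ± 1.3 to 16.3 ± 1.6 CPM (-0.42, adjusted p 0.00369, edgeR). Cox6b2, at under 1 CPM, had the lowest value at -2.64. Leaving out WT replicate 3 left 12 calls, S100a16KO+/- replicate 3 left 17, and S100a16KO+/- replicate 1 left 19. In these fits the share of all tested genes called was lower too, at 16.5%, 17.4% and 17.7%. Cytosolic ribosomal protein genes had a median of 0.09, with 11 of 75 higher (14.7%, against 11.6% of all tested genes) and 1 lower. Rpl34 was at 0.31 and Rpl10 at 0.29, while Rpl23a was at -0.27 (adjusted p 0.0322, 0.00327 and 0.0129, edgeR). The differences between the lists were not tested.

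**Figure D5:**
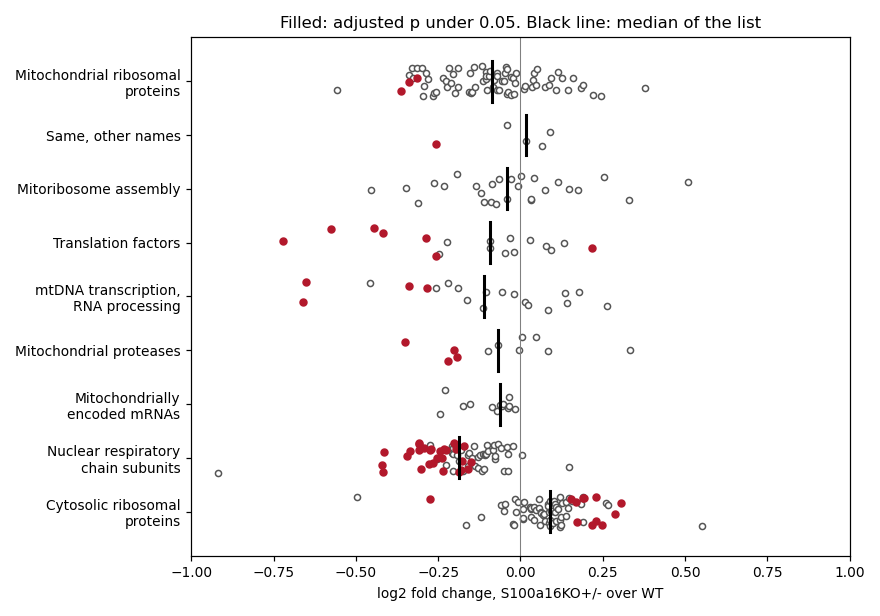
Log2 fold change of S100a16KO+/- over WT for every tested gene of 9 lists (points, filled where the adjusted p was under 0.05), with the median of each list as a black line. The medians are -0.09 for the 78 mitochondrial ribosomal protein genes, -0.19 for nuclear respiratory chain subunits and 0.09 for cytosolic ribosomal proteins. The respiratory chain list includes ATP synthase subunits, and 1 of its genes lies outside the axis.

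Regulators named for these genes moved in both directions. Of 12 tested, 4 fell and 2 rose (50%, against 22.8% of all tested genes and 29.6% of those in the CPM range of the 78 genes). Their median level was 25.8 CPM, against 6.42 for all tested genes. Ppargc1a, a coactivator of mitochondrial gene programmes, stood at 7.48, 6.14 and 6.82 CPM in WT and at 26.4, 27.4 and 25.6 in S100a16KO+/- (log2 fold change 1.96, adjusted p 2.44e-09, edgeR). Nrf1, whose motif was counted above, was at -0.40 (adjusted p 0.0444) and Atf5, a factor of the mitochondrial stress response, at -0.36 (adjusted p 0.000175, both edgeR). Gabpa, the ETS subunit of GABP, fell from 35.9 ± 0.05 to 29.0 ± 1.6 CPM (-0.31, adjusted p 0.00316, edgeR), and Atf4 rose from 78 ± 3.6 to 99.5 ± 3.1 CPM (0.35, adjusted p 0.000366, edgeR). Gabpa and Atf4 were named after their values were seen. The rise of Ppargc1a and the falls of Nrf1 and Gabpa thus stood beside 0 rises and 3 falls among the 78 ribosomal protein genes. Those 3 were 3.85% of the 78, against 11.2% lower among all tested genes and 15.7% at similar CPM. The windows of Mrps5 and Mrps2 held no ETS or NRF1 match. Whether the regulators and the 78 genes are connected was not tested.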

How the data were processed

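Poly(A)-selected RNA of 6 libraries was sequenced, 3 from WT and 3 from S100a16KO+/- hepatocytes. The submitters' processing notes name cutadapt 1.9, HISAT2 2.0.4, UMI-tools, StringTie 1.3.4d, DESeq2, edgeR and the build mm10, with no order. The authors deposited, per gene and library, an estimated count not scaled for library size and an FPKM value scaled for length and library size. Strand settings of the counting are not given in the sources used here. Low estimated counts peak at 4 in every library, so that about 4 counts stand for 1 fragment, and division by 4 was an alternative.

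Estimated counts were rounded and tested over the whole table with edgeR 4.0.16 in R 4.3.3 (TMM, filterByExpr, robust quasi-likelihood fit, two-sided, no covariate), with Benjamini-Hochberg adjustment over 15957 genes. Alternatives used DESeq2 1.42.0, limma 3.58.1 (voom, and log2(FPKM + 1) or log2(FPKM + 0.1)), other scalings and filters, a replicate block and left-out libraries. Positions are those of the table, and exons and neighbours are from GENCODE M21 on GRCm38, where 69 of the 78 genes had the same start and end.

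Named were members past the adjusted threshold without overlap between genotypes (up to 8 per direction, mean FPKM of at least 1), any meeting the criterion of the study, the 3 highest and 3 lowest by mean FPKM, the 3 nearest to no change, the Mrps18 paralogs, S100a16, and from each pathway list up to 3 called genes with the largest change. Others are marked as named after their values were seen. The members, gene lists, motifs and rules were chosen with earlier results of these data known, and support nothing on their own.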

Additional observations from a re-analysis of the deposited data

How the results depend on the processing

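The median log2 fold change of the 78 genes stayed below 0 in all 21 fits, from -0.14 without S100a16KO+/- replicate 2 to -0.05 with upper-quartile factors. Mrps5 was called lower in 20 of the 21, all but limma on log2(FPKM + 1) without a filter. Members called lower numbered 0 in that last setting and 2 to 4 with 1 library left out. Members called higher numbered 0 to 1 with 1 library left out, 2 with upper-quartile factors and with a mean of at least 1 CPM, and 1 with counts divided by 4 and in both FPKM fits over genes at a mean FPKM of at least 1. Leaving out both WT replicate 1 and S100a16KO+/- replicate 2, added after seeing the data, gave 2 higher and 5 lower. Respiratory chain genes called lower numbered 12 to 25 with 1 library left out, 15 with total counts, 19 with upper-quartile factors, 14 and 13 in the filtered FPKM fits with pseudocounts of 1 and 0.1, and 3 without a filter. Translation factors called lower numbered 3 to 6 with 1 library left out, 3 with total counts, 2 in the FPKM fit without a filter and 3 without both libraries. The lists were put through these settings after the data were seen. The share of all tested genes called also changed, from 22.8% in the main fit to between 16.5% and 19.9% with 1 library left out. It was 17.9% with total counts, 22.6% with upper-quartile factors, 31.3% with a mean of at least 1 CPM and 29.7% with counts divided by 4. In the filtered FPKM fits it was 24.6% and 24.4%, and without a filter 5.33%. Genes nearest to 0 changed sign: Mrps34 was at 0.0020 with total counts, 0.0238 with upper-quartile factors, 0.0703 without both libraries and -0.0871 to 0.0419 with 1 left out, Mrps18c at -0.0023 without both libraries and -0.0997 to 0.237 with 1 left out, and Mrpl2 at -0.0776 to 0.0957 with 1 left out. The causes were not tested. With the replicate number as a block, 2 members were lower and 0 higher, the median was -0.09, and Mrps28 had an adjusted p of 0.0545 (edgeR). Same-numbered libraries correlated at -0.05, -0.02 and 0.05, and the other pairs at -0.07 to 0.08. With 3 libraries per genotype, such values cannot show whether the numbers pair the libraries. Estimated counts leave the number of fragments per gene uncertain, and with a median standard error of 0.10 on the log2 scale changes of that size were not detectable.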

Other observations

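The 5 pseudogene rows left out by name were at low levels. Mrps36-ps1 had 1 to 7 counts per library and Mrps36-ps2 1 to 9. Mrpl27-ps had 45, 33 and 36 counts in WT and 17, 17 and 22 in S100a16KO+/-, without overlap. Of all tested genes, 18.6% were likewise lower without overlap in scaled counts. The counts of the pseudogene rows are not scaled, about 4 stand for 1 fragment, and no test of them is given. Mrpl48-ps had 68, 60 and 32 counts in WT and 33, 36 and 22 in S100a16KO+/-, and Mrpl23-ps1 had 78, 23 and 18 against 26, 12 and 30. Reads of such processed copies cannot always be told from those of the parent gene.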
